A study of Homo sapiens with 6 samples.

Results

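Interleukins and the chains of their receptors were examined in MEC-1 cells, a B cell line established from a chronic lymphocytic leukemia (CLL), as all genes whose symbol starts with IL and a digit, with CRLF2 added. Of 18404 genes measured on probe sets naming a single gene, 85 met this rule: 41 ligands (secreted cytokines and secreted receptor antagonists), 40 receptor chains and 4 that are neither, namely the soluble binding proteins IL18BP and IL22RA2, the antisense RNA IL6-AS1 and the receptor-like gene IL17REL. Each of the 85 genes had 1 probe set. RNA came from 3 samples given a lentiviral short hairpin RNA (shRNA) against UGT2B17, which encodes a glucuronosyltransferase that inactivates androgens among other compounds, and from 3 given a scrambled shRNA. All 6 were MEC-1 cells in RPMI with 10% fetal calf serum, without phenol red or antibiotics, and each was read on 1 Affymetrix array. The labels name no number of targeting hairpins or of clones and no time after transduction, and they do not say that the replicates were separate cultures. P-values therefore measure only the spread between these arrays, and lower UGT2B17 cannot be told apart from other effects of the hairpin.

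Interleukins are secreted proteins that carry signals between cells, mostly white blood cells. Most bind receptors built from a chain that recognises one ligand and a second chain shared with other ligands, such as the common gamma chain IL2RG, the common beta chain CSF2RB, or IL6ST (gp130), and these chains switch on Janus kinases (JAKs) and the transcription factors called STATs. IL-1 and IL-18 instead use paired receptors with a common fold that recruit MYD88, and IL-17 uses receptors that recruit the adaptor TRAF3IP2. B cells respond to several of these proteins, among them IL-4, IL-10 and IL-21, and CLL cells are known to release IL-10.

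UGT2B17 itself read 3.19, 3.27 and 3.17 log2 units with the UGT2B17 shRNA, against 3.95, 3.69 and 3.91 with the scrambled shRNA, on the probe set that names it alone. Its log2 fold change was −0.64 ± 0.09 (SE; limma, adjusted p = 0.00654), on a probe set that is dim in both groups. A brighter probe set that names both UGT2B17 and UGT2B15 averaged 6.72 ± 0.15 in knockdown and 8.06 ± 0.05 in scrambled cells (SD, n = 3 each), a log2 fold change of −1.34, and another that names UGT2B17 with 4 relatives had −1.50. A dim probe set that names 7 genes, UGT2B17 among them, averaged 3.69 ± 0.05 in knockdown and 3.90 ± 0.04 in scrambled cells. Its log2 fold change of −0.21 did not pass (limma over all deposited probe sets, adjusted p = 0.226). The probe sets that name several genes cannot tell UGT2B17 from the others they name. The 6 arrays correlated with each other at 0.991 to 0.996. Scrambled replicate 3 lay furthest from its group mean and had the lowest array weight in limma, 0.25 against 0.549 to 6.12 for the others. Of 9 B cell markers listed, all 7 measured lay above the signal of most olfactory receptor genes. These genes are used here to show what a probe set reads when its gene is silent in most tissues. That signal had a 95th percentile of 5.93 log2 units over 360 olfactory receptor genes. Of all genes tested, 67.1% exceeded this percentile, so a marker above it does not by itself identify a cell type. Of the markers of other cells, 2 of 9 for T and NK cells, 4 of 8 for monocytes and 6 of 8 for epithelial cells and fibroblasts exceeded it. Among those below it, CD3E read 5.01 log2 units in knockdown and 4.98 in scrambled cells, CD14 read 5.24 and 5.43, and LYZ read 3.27 and 3.37. Among those above it, the means over the 6 arrays were 7.13 for NKG7, 6.32 for CD8A, 6.24 for S100A9, 8.37 for CDH1 and 7.23 for COL1A1. NKG7, a T and NK cell marker, was higher in knockdown cells without overlap. Its log2 fold change of 0.25 ± 0.06 (SE) did not pass (limma, adjusted p = 0.0752). The summed monocyte marker signal was 8.73 to 8.89 log2 units in knockdown cells and 8.95 to 9.34 in scrambled cells, mainly through MPEG1, at 7.16 ± 0.21 and 7.93 ± 0.47 (SD, n = 3 each). The summed T and NK cell marker signal was 8.87 to 8.98 in knockdown cells and 8.80 to 8.85 in scrambled cells, and that of epithelial and fibroblast markers was 9.72 to 9.78 and 9.60 to 9.82. The part of these shifts in the results below was not tested, and fewer cells of a type cannot be told apart from less RNA per cell.

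With UGT2B17 knocked down, the cytokine IL32 rose and the receptor chains CRLF2 and IL6ST fell, and no other member passed the test. These 3 genes are 3.53% of the 85 members, while 3.61% of all genes tested passed the same threshold (limma, Benjamini-Hochberg adjusted p under 0.05), a share near that of genes at large. Among the ligands 1 of 41 passed (2.44%), among the receptor chains 2 of 40, and among the remaining 4 members none, nor had any of these 4 an unadjusted p under 0.05. The share of all genes that passed upward was 1.92% and downward 1.69%. The median log2 fold change was 0.01 for the ligands and −0.02 for the receptor chains, against −0.002 over all genes.

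At an unadjusted p under 0.05 there were 14 members, or 16.5%, where all genes gave 18.2%. The ligands had 4 such genes, 2 higher and 2 lower. The receptor chains had 10, of which 2 were higher and 8 lower. The 8 lower chains are 20% of the 40, while 9.45% of all genes were lower at this p and 8.7% were higher. The arrays of the groups did not overlap for 19 members, 22.4% of the family, where the share over all genes was 24.8%, and 10 of the 40 receptor chains (25%) were lower without overlap, where the share over all genes was 13.1%, against 11.8% higher. Members and lists were chosen with earlier results of these data known, and no test was made of the family as a set.

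**Figure D1:**
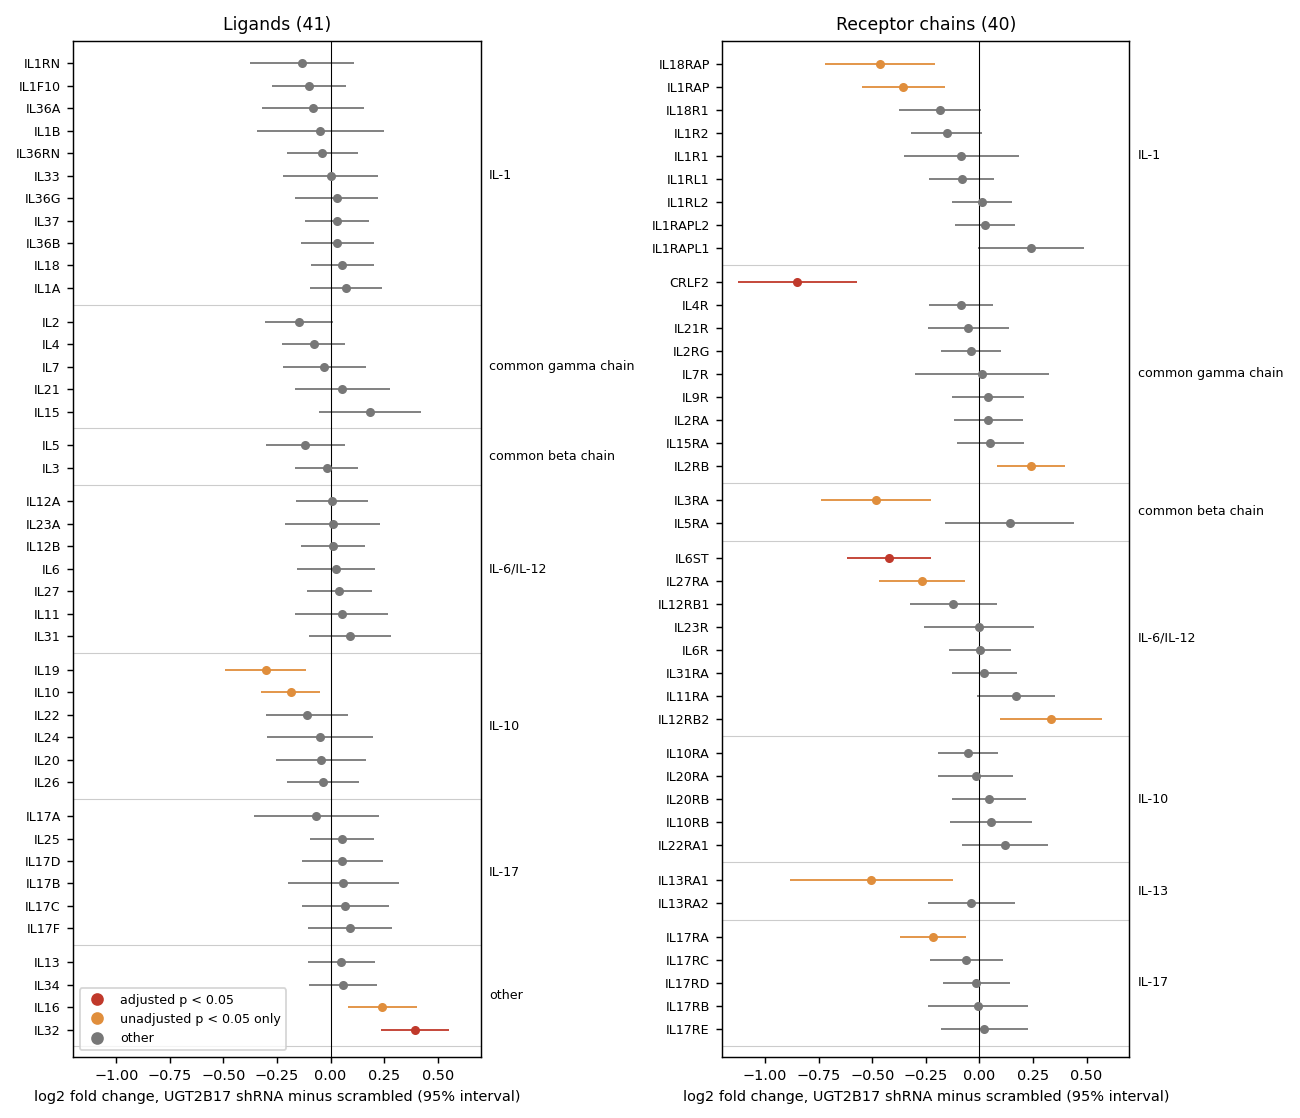
Log2 fold change (UGT2B17 shRNA minus scrambled, horizontal axis) with its 95% interval for each of the 41 ligands (left) and 40 receptor chains (right), grouped by family. Red marks the 3 genes with adjusted p under 0.05 (IL32, IL6ST, CRLF2), orange the 11 others with unadjusted p under 0.05, and grey the rest. Orange and red points to the left of 0 number 8 among the receptor chains (20%) and 2 among the ligands (4.88%). Of all genes, 9.45% were lower at this p. The classes differ in signal, with 22 of the 40 receptor chains and 14 of the 41 ligands above the 95th percentile of olfactory receptor genes.

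Signal levels differed widely between members. Of the 85 probe sets, 38 (44.7%) had a mean over the 6 arrays above the olfactory receptor level and 47 did not. Of all genes 67.1% were above it, as were 14 of the 41 ligands and 22 of the 40 receptor chains. The highest mean among the ligands was 9.43 log2 units (IL32) and among the receptor chains 11.25 (IL2RB), and the lowest was 3.18 (IL2). Signals of different probe sets depend on their probes, so these levels show how far a probe set stands above background and do not rank amounts of RNA. Array fold changes are compressed near background, so a value near 0 for a dim member does not show that its RNA was unchanged. The 3 genes that passed were above it by their mean over all arrays, but for CRLF2 the knockdown arrays alone were below it, where a difference may be understated.

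**Figure D2:**
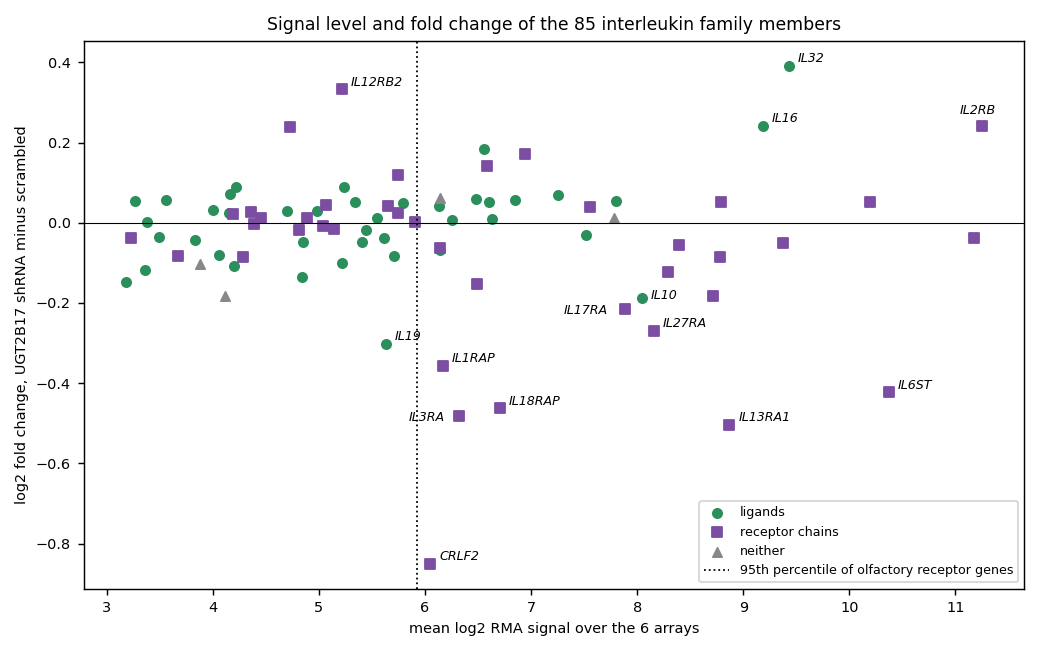
Mean log2 signal over the 6 arrays (horizontal axis) and log2 fold change, UGT2B17 shRNA minus scrambled (vertical axis), for the 85 members; circles are ligands, squares receptor chains and triangles neither. The dotted line is the 95th percentile of olfactory receptor genes, 5.93 log2 units. The labelled genes have an unadjusted p under 0.05, and 12 of these 14 lie to the right of the line, with IL19 and IL12RB2 to its left.

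Among the ligands, IL32 was the gene that passed. IL32 is a cytokine first described in activated T and NK cells that induces other inflammatory cytokines. Its probe set read 9.68, 9.68 and 9.52 log2 units in knockdown cells, against 9.22, 9.27 and 9.21 in scrambled cells. All 3 knockdown arrays lay above all 3 scrambled arrays. IL32 rose by 0.39 ± 0.07 log2 units (SE; 95% interval 0.23 to 0.55; 1.31-fold; adjusted p = 0.0210). The call was lost without knockdown replicate 1 (adjusted p = 0.0969), knockdown replicate 2 (0.108) or scrambled replicate 2 (0.0746), where the log2 fold change lay between 0.36 and 0.41, and when all deposited probe sets were tested (0.0760).

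The sequence before a start site of IL32 is shown because it is the ligand whose level changed and because its letters include matches to a pair of inducible elements. The chr16:3065153-3065402 window (GRCh38.p14, plus strand, RefSeq) holds the 250 bases before that start, and capitals mark matches to the cyclic AMP response element TGACGTCA and to a kappaB-type element (GGG, any 2 bases, then TTTCC), each searched on both strands. The motifs were picked with the sequences in view.
IL32 upstream: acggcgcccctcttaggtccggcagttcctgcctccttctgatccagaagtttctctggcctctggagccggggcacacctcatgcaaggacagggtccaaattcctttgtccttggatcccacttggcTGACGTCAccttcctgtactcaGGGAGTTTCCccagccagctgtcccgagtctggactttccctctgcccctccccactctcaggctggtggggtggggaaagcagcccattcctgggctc
TGACGTCA occurred in 1.65% of 34961 RefSeq windows of the same length and the kappaB-type element in 1.74%. The 68 members with such a window had 107 windows between them. TGACGTCA was in 1 of these 107 (0.935%), the IL32 window above. The kappaB-type element was in 5 (4.67%), belonging to IL1RN, IL27RA, IL32, IL4R and IL6. The other IL32 window, chr16:3065534-3065783, held no match to TGACGTCA or to the kappaB-type element. The STAT-type element TTCNNNGAA was in neither IL32 window. It was in 7 of the 107 member windows (6.54%) and in 6.57% of all windows. A match is a description of the letters and says nothing of binding in these cells.

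IL16, a chemoattractant that binds CD4, and the IL-10 family had the other ligand genes with an unadjusted p under 0.05. IL16 read 9.35, 9.26 and 9.30 log2 units in knockdown cells, against 9.14, 9.08 and 8.96 in scrambled cells, without overlap. Its log2 fold change was 0.24 ± 0.07 (SE), which did not pass (adjusted p = 0.110). IL10, a cytokine that dampens inflammation and is made by regulatory B cells, read 7.96, 7.92 and 7.97 in knockdown cells, against 8.11, 8.15 and 8.16 in scrambled cells. The spread within each group was 0.03 (SD, n = 3 each), and the log2 fold change of −0.19 ± 0.06 did not pass (adjusted p = 0.139). IL19, its neighbour, read 5.51, 5.43 and 5.50 in knockdown cells, against 5.61, 5.85 and 5.88 in scrambled cells. Its log2 fold change was −0.30 ± 0.08 (adjusted p = 0.0930), on a probe set below the olfactory receptor level, and the gene passed without scrambled replicate 1 (−0.39; adjusted p = 0.0337).

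The other 37 ligands had unadjusted p-values at or above 0.05 and log2 fold changes between −0.15 and 0.18. All 11 IL-1 family ligands, including IL1A, IL1B, IL18, IL33 and the antagonist IL1RN, were below the olfactory receptor level and had log2 fold changes between −0.13 and 0.07. IL1B read 5.37, 5.38 and 5.39 in knockdown cells, against 5.69, 5.10 and 5.49 in scrambled cells, so the scrambled arrays spanned the knockdown ones. IL6, a growth factor of plasma cells, averaged 4.16 ± 0.09 in knockdown and 4.13 ± 0.11 in scrambled cells (SD, n = 3 each). IL7, a factor for early lymphocytes, averaged 7.50 ± 0.07 and 7.53 ± 0.14, and IL17D averaged 7.83 ± 0.15 and 7.77 ± 0.05, both above the olfactory receptor level and with groups that overlapped. IL15, which supports lymphocyte survival, had the highest log2 fold change among these 37, 0.18 ± 0.11 (SE; adjusted p = 0.412). IL2 had the lowest, −0.15 ± 0.07 (adjusted p = 0.308), at 3.11 ± 0.07 in knockdown and 3.26 ± 0.06 in scrambled cells, where the probe set is near the bottom of the array.

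**Figure D3:**
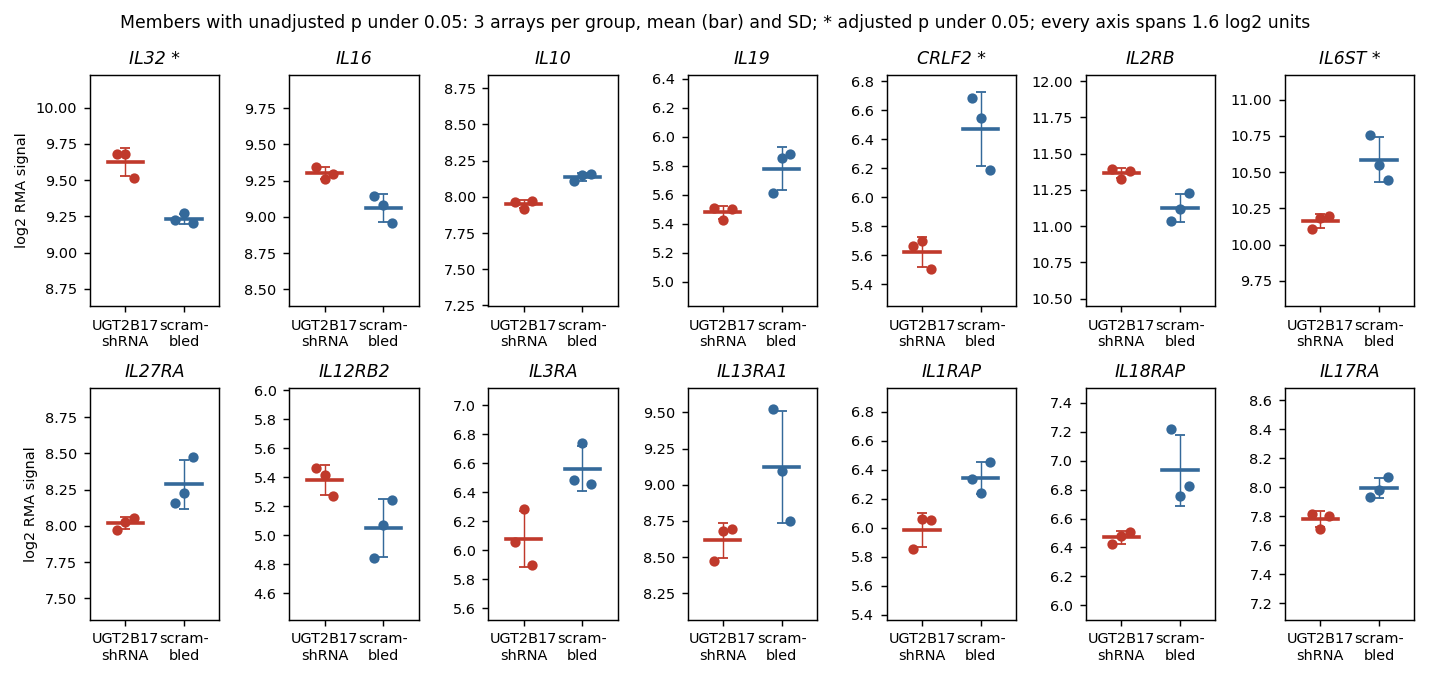
Log2 signal (vertical axis, the same span in every panel) on the 3 UGT2B17 shRNA arrays (red, left) and the 3 scrambled arrays (blue, right) for the 14 members with unadjusted p under 0.05; thick bars are means, thin bars SD, and an asterisk marks adjusted p under 0.05. The groups do not overlap in any of the 14 panels, and the scrambled arrays are widely spread for IL13RA1, CRLF2 and IL18RAP.

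Among the receptors, CRLF2 had the largest change of the 85 members. CRLF2 is the receptor chain for thymic stromal lymphopoietin (TSLP) and pairs with IL7R, and it is known for rearrangements in B cell acute leukemia. It read 5.66, 5.70 and 5.51 log2 units in knockdown cells, against 6.68, 6.55 and 6.19 in scrambled cells. The highest knockdown array lay below the lowest scrambled array, scrambled replicate 3. CRLF2 fell by 0.85 on the log2 scale, with an SE of 0.12 and a 95% interval of −1.13 to −0.57, or 1.80-fold lower (adjusted p = 0.00955). Without scrambled replicate 2 the log2 fold change was −0.81 and the call was lost (adjusted p = 0.0510), as it was over all deposited probe sets (0.0575). Its partner IL7R averaged 4.89 ± 0.22 in knockdown and 4.88 ± 0.24 in scrambled cells (SD, n = 3 each), below the olfactory receptor level, with overlapping groups. The ligand TSLP was below that level too, with a log2 fold change of 0.10 (adjusted p = 0.479).

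IL6ST, the shared signalling chain for IL-6, IL-11, IL-27 and related cytokines, was the second receptor gene that passed. It read 10.11, 10.18 and 10.20 log2 units in knockdown cells, against 10.75, 10.55 and 10.45 in scrambled cells. The knockdown arrays were close together, and all lay below the scrambled arrays. IL6ST fell by 0.42 on the log2 scale, with an SE of 0.09 and a 95% interval of −0.62 to −0.23, or 1.34-fold lower (adjusted p = 0.0348). The call was the least stable of the 3: it was lost without any single array other than scrambled replicate 3 (adjusted p 0.0513 without scrambled replicate 1, 0.104 without scrambled replicate 2, and 0.109 to 0.136 without a knockdown array) and over all deposited probe sets (0.117), while the log2 fold change stayed between −0.49 and −0.34.

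The 250 bases before the IL6ST start are shown as the receptor counterpart to IL32, chr5:55994964-55995213 (GRCh38.p14, minus strand, RefSeq), with CCAAT boxes in either orientation in capitals.
IL6ST upstream: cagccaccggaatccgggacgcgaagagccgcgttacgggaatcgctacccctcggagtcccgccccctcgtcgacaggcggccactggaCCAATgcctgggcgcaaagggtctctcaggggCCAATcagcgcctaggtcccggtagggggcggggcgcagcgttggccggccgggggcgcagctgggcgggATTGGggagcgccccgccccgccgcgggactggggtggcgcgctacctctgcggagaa
The window is 73.6% G and C, against 60.8% in the IL32 window above. It held 3 CCAAT matches and 4 matches to GGGCGG, and no match to TTCNNNGAA, TGACGTCA or the kappaB-type element. CCAAT occurred in 32.0% of all windows and GGGCGG in 42.7%.

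No partner or relative of IL6ST passed, and their log2 fold changes had both signs. IL27RA, the ligand-specific chain for IL-27, read 7.97, 8.03 and 8.06 in knockdown cells, against 8.16, 8.23 and 8.48 in scrambled cells, a log2 fold change of −0.27 ± 0.09 (adjusted p = 0.150). EBI3, a subunit of IL-27 and IL-35, read 9.93, 9.84 and 9.89 in knockdown cells, against 10.13, 10.15 and 10.11 in scrambled cells (−0.24 ± 0.06; adjusted p = 0.0697). IL11RA averaged 7.03 ± 0.09 and 6.86 ± 0.11, with overlap. IL6R averaged 5.91 ± 0.03 and 5.91 ± 0.06, at the edge of the olfactory receptor level. IL12RB2, the signalling chain for IL-12, was higher in knockdown cells at 5.47, 5.42 and 5.27, against 4.84, 5.07 and 5.24 in scrambled cells. Its lowest knockdown array and its highest scrambled array nearly met, the probe set was dim, and the log2 fold change of 0.33 ± 0.11 did not pass (adjusted p = 0.132). It passed without scrambled replicate 3 (0.43; adjusted p = 0.0436) and with array weights. Its partner IL12RB1 averaged 8.23 ± 0.06 in knockdown and 8.35 ± 0.17 in scrambled cells, with overlap. Array weights called 3511 genes, against 665 in the main fit, with scrambled replicate 2 weighted 6.12 and the other scrambled arrays 0.549 and 0.25. All 14 members with an unadjusted p under 0.05 in the main fit passed with these weights, so passing there singles out none of them.

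In the IL-1 and IL-18 receptor family the accessory chains had values below those of scrambled cells, just outside the threshold. IL1RAP, the accessory chain of the receptors for IL-1, IL-33 and IL-36, read 5.85, 6.06 and 6.05 in knockdown cells, against 6.33, 6.24 and 6.46 in scrambled cells. The log2 fold change was −0.36 ± 0.09 (1.28-fold; adjusted p = 0.0583), and it passed with only genes above the 25th percentile of level (0.0475) and with array weights (0.0209). IL18RAP, the accessory chain for IL-18, read 6.42, 6.48 and 6.51 in knockdown cells, against 7.21, 6.76 and 6.83 in scrambled cells. The log2 fold change was −0.46 ± 0.11 (1.38-fold; adjusted p = 0.0628), and scrambled replicate 1 stood above the other arrays. IL18RAP passed after a further quantile normalisation (adjusted p = 0.0471), with arrays centred on their median (0.0493) and with array weights (0.0263). The ligand-binding chain IL18R1 read 8.59, 8.66 and 8.63 in knockdown cells, against 8.97, 8.80 and 8.66 in scrambled cells. For IL18R1 the groups almost touched, and the log2 fold change was −0.18 ± 0.08 (adjusted p = 0.298). The decoy receptor IL1R2 averaged 6.41 ± 0.03 in knockdown and 6.57 ± 0.11 in scrambled cells (adjusted p = 0.316), and IL1R1, IL1RL1 and IL1RL2 were below the olfactory receptor level with log2 fold changes between −0.09 and 0.01. The remaining chains of this family, IL1RAPL1 and IL1RAPL2, were also below that level, with log2 fold changes of 0.24 ± 0.11 (adjusted p = 0.293) and 0.03 ± 0.06 (SE).

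Receptor chains for other growth factors of lymphocytes and myeloid cells were mixed. IL3RA, the IL-3 receptor alpha chain (CD123), read 6.06, 6.28 and 5.90 in knockdown cells, against 6.49, 6.74 and 6.46 in scrambled cells, without overlap. Its log2 fold change of −0.48 ± 0.11 (1.40-fold) lay just outside the threshold (adjusted p = 0.0543). It passed with arrays centred on their median (0.0470), after a further quantile normalisation (0.0429) and with only genes above the 25th percentile of level (0.0457). It also passed with array weights (0.00240), a fit that called 3511 genes. The common beta chain CSF2RB averaged 6.11 ± 0.13 in knockdown and 6.21 ± 0.05 in scrambled cells, and IL5RA averaged 6.65 ± 0.08 and 6.51 ± 0.30, both with overlap. IL13RA1, which forms the second type of IL-4 receptor with IL4R, read 8.48, 8.68 and 8.69 in knockdown cells, against 9.52, 9.10 and 8.75 in scrambled cells. The scrambled arrays were widely spread, and the log2 fold change of −0.50 ± 0.17 did not pass (adjusted p = 0.154). It passed without scrambled replicate 3 (−0.69; adjusted p = 0.0267) and with array weights. IL17RA, the shared chain of IL-17 receptors, read 7.82, 7.71 and 7.80 in knockdown cells, against 7.93, 7.98 and 8.07 in scrambled cells, a log2 fold change of −0.21 ± 0.07 (adjusted p = 0.132).

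CRLF2 was counted in the common gamma chain group, although its partner is IL7R rather than IL2RG. In that group the chains that bind IL-2, IL-4, IL-15 and IL-21 showed no change that passed. IL2RB, the signalling chain for IL-2 and IL-15, read 11.39, 11.32 and 11.38 in knockdown cells, against 11.03, 11.12 and 11.23 in scrambled cells. The groups did not overlap, and the log2 fold change of 0.24 ± 0.07 did not pass (adjusted p = 0.112). It passed without scrambled replicate 3 (0.29; adjusted p = 0.0477) and with array weights. IL2RG itself read 11.17, 11.17 and 11.13 in knockdown cells, against 11.16, 11.18 and 11.25 in scrambled cells, with overlap and a 95% interval of −0.18 to 0.10. For IL4R the interval was −0.24 to 0.06, for IL15RA −0.10 to 0.21, and for IL21R −0.24 to 0.14. IL2RA (CD25), the high-affinity chain for IL-2, was below the olfactory receptor level at a log2 fold change of 0.04. The IL-10 receptor chains IL10RA (8.36 ± 0.04 in knockdown and 8.42 ± 0.03 in scrambled cells) and IL10RB (10.22 ± 0.02 and 10.16 ± 0.15) overlapped between groups, with intervals of −0.19 to 0.08 and −0.14 to 0.24. A missed threshold does not show that these levels were equal.

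Several members lie next to each other in the genome, and neighbours were set side by side after the values were seen, in the gene order of GRCh38.p14. In the cluster of 4 IL-10 family ligands on chromosome 1, IL10 and IL19 had log2 fold changes of −0.19 and −0.30, and IL20 and IL24, both dim, −0.04 and −0.05. In the cluster of 6 IL-1 family receptor genes on chromosome 2, the log2 fold changes were −0.15 for IL1R2, −0.09 for IL1R1, 0.01 for IL1RL2, −0.08 for IL1RL1, −0.18 for IL18R1 and −0.46 for IL18RAP. On chromosome 5, IL31RA next to IL6ST was dim, at 0.02. On chromosome 1, IL23R next to IL12RB2 was dim, at −0.002. CRLF2 and IL3RA are separated by CSF2RA alone in the pseudoautosomal region, whose genes have identical copies on X and Y. Of 16 protein-coding genes there from PLCXD1 to CD99, 9 were measured, and CRLF2 was the one that passed. CSF2RA, the GM-CSF receptor alpha chain, averaged 4.77 ± 0.04 in knockdown and 4.87 ± 0.05 in scrambled cells, below the olfactory receptor level. P2RY8, a lymphocyte receptor gene further along, averaged 9.25 ± 0.10 in knockdown and 9.04 ± 0.10 in scrambled cells, a log2 fold change of 0.21 ± 0.08 (adjusted p = 0.206), and the other 5 ran from −0.12 to 0.07.

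**Figure D4:**
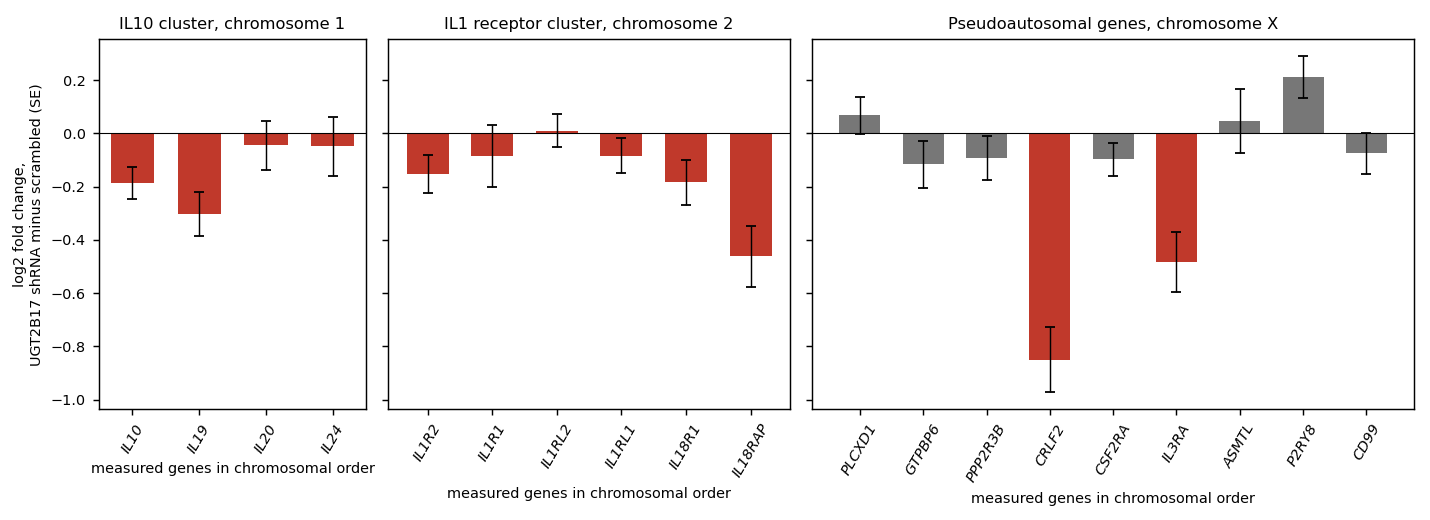
Log2 fold change, UGT2B17 shRNA minus scrambled, with SE (bars start at 0), for measured genes in chromosomal order in 3 regions: the IL10 cluster, the IL1 receptor cluster and the pseudoautosomal region of X. Red bars are interleukin family members and grey bars are other genes. CRLF2 at −0.85 and IL3RA at −0.48 stand beside CSF2RA at −0.10, and P2RY8 is at 0.21.

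Genes through which interleukins signal or are processed were read from 7 lists, with 95 distinct genes measured of 110 listed. Of these, 11 passed, 3 higher and 8 lower, or 11.6% where 3.61% of all genes passed. The median log2 fold change of the 95 was −0.004, against −0.002 over all genes. The lists were chosen with earlier results of these data known, so this count is not independent evidence about them.

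JAK2, a kinase used by IL6ST (alongside other JAKs), CRLF2 and the common beta chain among others, and STAT3, the main STAT below IL6ST and the IL-10 receptor, moved in opposite directions. JAK2 read 6.61, 6.78 and 6.79 log2 units in knockdown cells, against 7.26, 7.34 and 7.43 in scrambled cells, a log2 fold change of −0.61 ± 0.08 (1.53-fold lower; adjusted p = 0.00649). STAT3 read 11.10, 11.12 and 11.07 in knockdown cells, against 10.82, 10.81 and 10.83 in scrambled cells, a log2 fold change of 0.28 ± 0.06 (1.21-fold higher; adjusted p = 0.0394). Neither gene's arrays overlapped between groups. Of the 9 measured JAKs and STATs the other 7 did not pass: JAK1 read −0.02, TYK2 −0.13, JAK3 0.14 and STAT6 −0.12 as log2 fold changes. Of 16 JAK-STAT inhibitors 1 passed, SOCS2, a feedback inhibitor that STAT5 induces, which read 6.01, 6.03 and 6.09 in knockdown cells, against 6.43, 6.49 and 6.44 in scrambled cells (−0.41 ± 0.06; adjusted p = 0.0111).

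Genes that process IL-1 and IL-18 or carry IL-1, IL-18 and IL-17 signals gave 4 calls over 3 lists. Of 12 genes for processing and release, CASP1, the protease that cleaves the IL-1 beta and IL-18 precursors, and PYCARD, the inflammasome adaptor ASC, fell. CASP1 read 5.66, 5.68 and 5.47 in knockdown cells, against 6.95, 6.68 and 6.65 in scrambled cells (−1.15 ± 0.10; adjusted p = 0.00147). As for CRLF2, the knockdown arrays lay below the olfactory receptor level and the scrambled arrays above it, so the size of the difference may be understated. PYCARD read 8.67, 8.55 and 8.56 in knockdown cells, against 9.13, 9.04 and 9.02 in scrambled cells (−0.46 ± 0.07; adjusted p = 0.00984). The list's median was −0.17. Of 13 IL-1 and IL-18 signalling genes, TAB2, an adaptor of the kinase TAK1, rose by 0.41 ± 0.07 log2 units (9.44 ± 0.08 in knockdown and 9.02 ± 0.05 in scrambled cells; adjusted p = 0.0167), and the adaptor MYD88 had a log2 fold change of −0.31 ± 0.10, which did not pass (adjusted p = 0.131). Of 5 IL-17 signalling genes, NFKBIZ, a nuclear IkappaB protein, fell by 0.44 log2 units, with an SE of 0.06 (7.70 ± 0.05 and 8.15 ± 0.05; adjusted p = 0.00979), and TRAF5 had 0.38 ± 0.10 (adjusted p = 0.0777).

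Of 23 measured related cytokines and receptors with other names, 1 passed: IFNLR1, the receptor chain for interferon lambda, which pairs with IL10RB, averaged 6.68 ± 0.07 in knockdown and 7.11 ± 0.14 in scrambled cells (−0.42 ± 0.08; adjusted p = 0.0326). Of 21 textbook STAT targets in B cells 4 passed, in both directions. CCND2, a D-type cyclin, averaged 7.24 ± 0.05 in knockdown and 8.09 ± 0.32 in scrambled cells (−0.85 ± 0.14; adjusted p = 0.0153). IRF1, a transcription factor of the interferon regulatory factor family, averaged 8.18 ± 0.10 and 8.58 ± 0.08 (−0.40 ± 0.08; adjusted p = 0.0256). SOCS2 is the third that fell. CCL22, a chemokine that IL-4 induces, averaged 9.67 ± 0.04 in knockdown and 9.08 ± 0.18 in scrambled cells (0.58 ± 0.09; adjusted p = 0.0143). FCER2 (CD23), another gene that IL-4 induces, had a log2 fold change of 0.28 ± 0.06, just outside the threshold (adjusted p = 0.0506). Of the other 16, BCL2L1 (−0.25; adjusted p = 0.221), PIM2 (0.24; 0.251) and MYC (0.18; 0.188) also had an unadjusted p under 0.05. SOCS1, SOCS3, PIM1, BCL6 and MCL1 had log2 fold changes between −0.004 and 0.12.

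**Figure D5:**
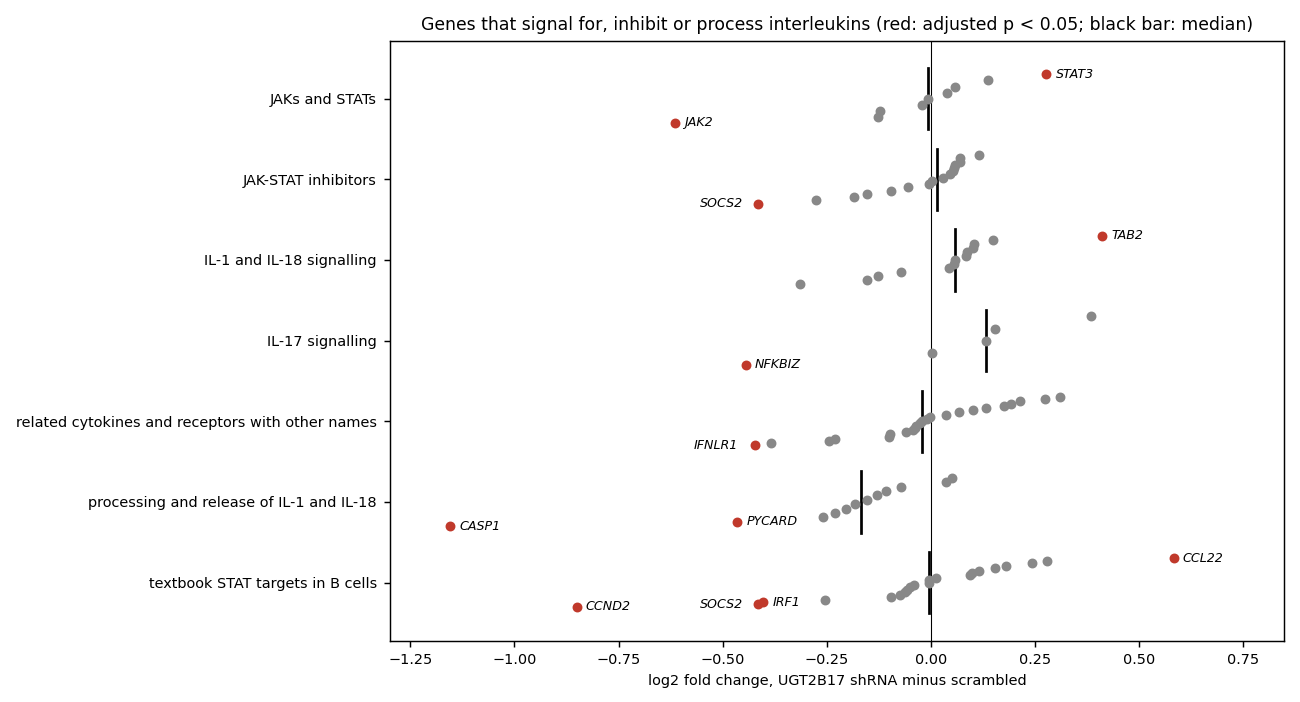
Log2 fold change, UGT2B17 shRNA minus scrambled (horizontal axis), of each measured gene in 7 lists of interleukin signalling and processing genes; red points have adjusted p under 0.05, and the black bar is the list's median. SOCS2 belongs to 2 lists. Called genes lie on both sides of 0, from CASP1 at −1.15 to CCL22 at 0.58.

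JAK2 and CASP1 stayed past the threshold without any single array. STAT3 was lost without each array other than scrambled replicate 3 (adjusted p 0.0669 to 0.164) and with arrays centred on their median (0.0770). Without 1 of several arrays (any knockdown array or scrambled replicate 2), IFNLR1 (0.0762 to 0.136), IRF1 (0.0815 to 0.109) and CCL22 (0.0606 to 0.0772) were lost. SOCS2 was lost without knockdown replicate 1, knockdown replicate 2 or scrambled replicate 2 (0.0601 to 0.0698), TAB2 without knockdown replicates 2 or 3 or scrambled replicate 2 (0.0783 to 0.0922), CCND2 without any knockdown array (0.0599 to 0.0798), PYCARD without knockdown replicates 2 or 3 (0.0573 to 0.0658), and NFKBIZ without knockdown replicates 1 or 2 (0.0520 to 0.0647). Over all deposited probe sets STAT3 (0.103), TAB2 (0.0677), IFNLR1 (0.111), CCND2 (0.0747), IRF1 (0.0919) and CCL22 (0.0685) were lost. With the replicate number as a block STAT3 (0.111), TAB2 (0.0529), IFNLR1 (0.0759) and IRF1 (0.0705) were lost. Every one of these genes kept its direction in all alternatives.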

How the data were processed

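RNA of 6 MEC-1 samples, 3 with UGT2B17 shRNA and 3 with scrambled shRNA, was read on 1 Affymetrix array each. The authors deposited log2 values made with RMA, per the submitters' processing notes, without a version or genome build in the sources used here. RMA corrects background, normalises arrays to common quantiles and summarises probe sets, so a shift shared by most genes is hidden. The values, 2.20 to 14.3 on 32321 probe sets, were used as deposited.

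Gene names came from GEO's annotation of the platform: 19158 name 1 gene, 1388 name several and 11775 are unlisted or have no gene symbol. The brightest probe set per gene was kept, leaving 18404 genes without a filter. Probe set 8038487, which names IL4I1 and NUP62, was left out by the rule. Knockdown was set against scrambled with lmFit and eBayes (limma 3.58.1, R 4.3.3, two-sided), with p adjusted by Benjamini-Hochberg over all genes; SEs and intervals are limma's. A two-sided exact permutation test of 3 against 3 arrays cannot go below 0.1. The fit was checked on simulated data. The number of arrays limits precision. Members with an unadjusted p under 0.05, the brightest ligands and receptor chains, and list genes that passed are named with values; further members were named after their values were seen. Members and lists were chosen with earlier results of these data known. The alternatives are in the closing section. Python 3.11.15 and matplotlib 3.10.9 were used for tables and figures.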

Additional observations from a re-analysis of the deposited data

How the results depend on the processing

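The calls rest on few arrays and on how many features are tested. Over all genes 665 passed, and among members, ligands, receptor chains and signalling list genes 3, 1, 2 and 11. With all deposited probe sets tested, limma gave 139, 0, 0, 0 and 5, with 14 members, 4 ligands and 10 receptor chains still at an unadjusted p under 0.05; this changes both the number of tests and limma's shared variance estimate, and the cause was not tested. With array weights the counts were 3511, 18, 6, 12 and 26. At an adjusted p under 0.1 they were 1207, 7, 2, 5 and 17. After a second quantile normalisation, with arrays centred on their median, and with only genes above the 25th percentile of level, 5 members and 4 receptor chains passed, 1 member higher and 4 lower, against 1 higher and 2 lower in the main analysis. Over all genes, these fits called 754 (396 higher, 358 lower), 591 (275 and 316) and 805 (434 and 371), in that order. The main analysis called 665 (354 and 311), and the fit with the percentile filter tested fewer genes. With only genes at or above the median level, where CRLF2 is not tested, 1 receptor chain passed, and 796 genes passed over all those tested. Leaving out 1 array gave 152 to 759 genes, 0 to 6 members, 0 to 2 ligands, 0 to 5 receptor chains and 2 to 12 list genes. Each of those fits has 1 fewer array. Without scrambled replicate 2, where 0 members passed, 17 had an unadjusted p under 0.05, and without scrambled replicate 3, 6 passed. The share of all genes in the same fits is not given here, so these counts do not set members apart from genes at large. UGT2B17 passed in every alternative where it was tested, with log2 fold changes of −0.71 to −0.50. The labels do not say whether the replicate numbers pair the arrays. Deviations of same-numbered arrays correlated at −0.05, −0.07 and −0.03, which shows no shared shift between them but cannot exclude pairing. With the replicate number as a block in limma, 367 genes and 7 list genes passed, 3 members passed, and IL6ST gave way to IL3RA (adjusted p 0.0762 and 0.0266). No called gene reversed. No member had a second probe set to compare. Signal over background limits the 47 members below the olfactory receptor level.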
